A study of Mus musculus with 9 samples.

Results

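The caput epididymis of W/Wv mice was compared with that of wild-type (WT) mice by RNA sequencing. The comparison takes the 3 libraries titled W/Wv and the 3 titled Wild-type, 6 of the 9 libraries of the series, over all 2462 genes of the deposited table. W/Wv mice carry a pair of mutant alleles, W and Wv, of Kit, the receptor for stem cell factor. Germ cells, mast cells, pigment cells and red cell precursors all depend on this receptor, so the genotype is not a lesion of germ cells alone, and the testes of such mice are known to hold very few germ cells. The WT group has the wild-type genotype. All mice were 14 weeks old, and the labels record no treatment in the W/Wv or the WT group. A further group, 14-week-old wild-type mice with ligated efferent ducts (EDL), shares the model fit and is set beside W/Wv near the end. The labels name no strain and do not say whether the 3 libraries of a group came from separate or pooled animals, so the p-values speak only for the spread among libraries, which may be technical. Kit was not analysed here.

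The epididymis is the coiled duct in which sperm leaving the testis mature, and the caput is its first part. Its epithelium, mainly principal cells, secretes lipocalins, cystatins, beta-defensins, proteases and their inhibitors into the lumen. The initial segment, where the duct begins, depends on factors that the testis releases into the fluid, a route called lumicrine signalling. In the mouse, NELL2 made by germ cells reaches the receptor tyrosine kinase ROS1 on these cells, and ERK signalling and ETS-family transcription factors act downstream.

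Depth and the state of the libraries come before the results. The libraries held 3536246 to 3784331 reads in the table in W/Wv and 3728405 to 4793224 in WT, where FPKM is a gene's reads scaled to transcript length and library size. In the 6 libraries 1 read corresponded to 0.0154 to 0.0206 FPKM in the median gene. Of the principal cell markers 9 were in the table, and 2 rose, 6 fell and 1 did not pass. Gpx5, at 23125 ± 795 FPKM in W/Wv and 26828 ± 1869 in WT (SD, n = 3 each), and Spag11b were abundant in both groups, while Lcn8, Cst8 and Crisp1, all on this list, were nearly gone in W/Wv. No gene of the lists for basal cells, smooth muscle, endothelium, lymphocytes or Sertoli and Leydig cells was in the table, so their share of the tissue was not analysed here. By a chi-square of their counts, the W/Wv libraries resembled each other more than the WT libraries did. The chi-square per gene between pairs of libraries was 4.87 to 6.65 in W/Wv and 13.4 to 24.9 in WT, and WT library 3 was part of the 2 highest values. It is a mean over genes that grows with read number, so abundant genes and deeper libraries weigh most in it.

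In W/Wv caput a small set of very abundant secretory genes was nearly gone, and others were raised several fold. Lcn8, Cst12, Cst8, 9230104L09Rik, Crisp1 and Ovch2 fell 49.9-fold or more. Lcn5, 5 of 8 beta-defensin and Spag11 genes tested and the amino acid carrier Slc38a5 rose. Of 2013 genes tested, 1416 changed (limma, Benjamini-Hochberg adjusted p under 0.05), which is 70.3% and the background for every count below. Of these 711 rose (35.3%) and 705 fell (35.0%), and the median change over all genes tested was 0.02 on the log2(FPKM + 1) scale. The table holds only part of the mouse genes, by a choice that no label explains, so the shares describe the table.

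The promoters of the lipocalin and cystatin genes that moved most are shown because Lcn8 and Lcn5 are neighbours on mouse chromosome 2 that moved in opposite directions, while the cystatin genes fell together. Lcn8 lies at chr2:25653118-25656217 and Lcn5 at chr2:25657932-25662230 (GRCm38, the build that mm10 names), 1714 bases apart. Each line gives the 250 bases before the start site in the RefSeq promoter table, 5′ to 3′ on the plus strand of GRCm38.p6. Capitals mark a motif, searched on both strands. One is the CCAAT box, spelled as its name. Another is TATAAA, called the TATA box. The last is the ETS core, which reads AGGAAG.
Lcn8: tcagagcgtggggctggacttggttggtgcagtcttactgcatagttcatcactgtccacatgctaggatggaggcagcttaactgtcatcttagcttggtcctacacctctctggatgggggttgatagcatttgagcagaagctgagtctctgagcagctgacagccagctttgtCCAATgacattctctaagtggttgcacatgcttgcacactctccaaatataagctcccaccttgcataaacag
Lcn5: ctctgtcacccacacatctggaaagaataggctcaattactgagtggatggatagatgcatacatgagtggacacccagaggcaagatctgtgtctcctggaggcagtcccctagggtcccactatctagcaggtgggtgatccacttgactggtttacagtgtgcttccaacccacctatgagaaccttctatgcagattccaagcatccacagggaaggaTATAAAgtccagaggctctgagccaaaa
Cst8: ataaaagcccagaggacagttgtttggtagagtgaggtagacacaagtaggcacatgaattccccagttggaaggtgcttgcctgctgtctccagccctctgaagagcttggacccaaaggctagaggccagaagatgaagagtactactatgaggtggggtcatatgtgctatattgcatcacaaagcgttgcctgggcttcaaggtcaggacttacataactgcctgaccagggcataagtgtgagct
Cst12: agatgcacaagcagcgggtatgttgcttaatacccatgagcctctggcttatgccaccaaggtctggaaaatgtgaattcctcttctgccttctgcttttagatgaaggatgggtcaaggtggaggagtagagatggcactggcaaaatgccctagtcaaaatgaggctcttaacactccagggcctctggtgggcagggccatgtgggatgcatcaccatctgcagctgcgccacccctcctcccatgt
The Lcn8 sequence is chr2:25652868-25653117 and holds a CCAAT box, which begins 73 bases before the start. The Lcn5 sequence is chr2:25657702-25657951 and holds a TATA box, which begins 28 bases before the start. That start lies inside the Lcn5 interval given above, so the last bases of the sequence are within it. The Cst8 sequence is chr2:148798589-148798838 and the Cst12 sequence is chr2:148789115-148789364, and none of the 3 motifs is in either. Of the 15 genes that fell most, 13 had a promoter in the RefSeq table, and a CCAAT box was in 2, a TATA box in 2 and an ETS core in 3. Of the 15 that rose most, 10 had a promoter, with 3 for each motif. Of all 27025 promoters of this length, 34.5% held a CCAAT box, 12.97% a TATA box and 29.2% an ETS core. Of the 1885 promoters of genes of the deposited table, 35.1% held a CCAAT box, 6.84% a TATA box and 27.6% an ETS core. The longer ETS site CCGGAAGT, which shares letters with the ETS core, was in 0 of the 13 and 0 of the 10. It was in 4.40% of the 1885 promoters and 2.93% of all 27025.

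Secreted proteins of the initial segment fell furthest. Lcn8, a lipocalin that carries small lipophilic molecules, had 2.21, 2.76 and 2.67 FPKM in the W/Wv libraries, against 21077, 16622 and 16243 FPKM in the WT libraries. Its log2 change was -12.30 (SE 0.15, limma adjusted p = 6.6e-12, on log2(FPKM + 1) values as throughout), the largest fall on this scale, though Cst12 fell further with a pseudocount of 0.1. Cst12, a cystatin, the family of cysteine protease inhibitors, had 0.644, 0.602 and 0 FPKM in W/Wv, against 6542, 5123 and 6356 FPKM in WT. The 8 reads of Cst12 in the 3 W/Wv libraries compare with 122416 in the 3 WT libraries. Its relative Cst8 had 0.773, 0.931 and 0.833 FPKM in W/Wv, against 2943, 2384 and 2345 FPKM in WT. For Lcn8, Cst12 and Cst8 every W/Wv library lay far below every WT library, and the groups did not come near each other. The choice of these genes required that the libraries did not overlap. In bulk tissue, fewer cells that make a transcript and less of it per cell cannot be told apart.

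The cystatin genes form a run on chromosome 2, and every member tested there was lower. Cst12 (chr2:148789365-148793432), Cst8 (chr2:148798839-148805596), Cst13 and 9230104L09Rik lie within 61598 bases, with Cst3 beyond them. The transcript 9230104L09Rik had 7.16, 23.5 and 5.03 FPKM in W/Wv, against 10651, 8373 and 9809 FPKM in WT (log2 change -9.81, SE 0.56, limma adjusted p = 5.9e-06). Library 2 was the highest of the W/Wv libraries and still lay far below WT. Cst13 had 0 reads in W/Wv and 52 in WT, at least 16.5-fold lower when W/Wv is set to 3 reads in all. This limit for a count of 0 is approximate. Cst3, cystatin C, which most tissues make, fell least, to 712 ± 23.8 FPKM in W/Wv against 1039 ± 37.3 in WT (SD, n = 3 each; log2 change -0.55, adjusted p = 7.1e-05), a call lost with quantile scaling. Gzf1, the gene before the run, had 11.9 ± 0.0574 FPKM in W/Wv and 12 ± 0.293 in WT and did not pass, and its sign turned with quantile scaling.

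Of the 20 initial segment genes searched, 8 were in the table and tested, and 8 of 8 fell, with a median log2 change of -6.52 beside 0.02 for all genes tested. Not all of them mark this segment alone. Crisp1 is also on the list of corpus and cauda markers, and Crisp1 and Gpx5 are on that of principal cells. Crisp1, a cysteine-rich secretory protein that binds sperm, had 7.34, 10.5 and 5.2 FPKM in W/Wv, against 1654, 1328 and 1513 FPKM in WT (log2 change -7.47, SE 0.20, adjusted p = 5.2e-09). Its relative Crisp4 fell less, to 101 ± 10.5 FPKM in W/Wv against 215 ± 33.5 in WT. Ovch2, a secreted serine protease needed for sperm to mature in the mouse, had 23.9, 22.4 and 22.5 FPKM in W/Wv, against 1274, 1043 and 1111 FPKM in WT. Srd5a1, the 5-alpha-reductase that makes dihydrotestosterone, had 2.2, 2.67 and 2.22 FPKM in W/Wv, against 36.6, 31.4 and 29.3 FPKM in WT (log2 change -3.31, SE 0.10, adjusted p = 1.4e-10). None of these 4 genes overlapped between the groups, and W/Wv was lower without overlap in 36.3% of all genes tested. For Crisp1 and Ovch2 the choice of genes required it. Gpx5, a glutathione peroxidase secreted by the caput, was the exception in size, with a log2 change of -0.21 (SE 0.08, adjusted p = 0.040), and under 9 of 19 alternatives it did not pass. Gpx5 lost its call with quantile scaling, with edgeR on recovered reads, with a replicate block and with only the 2 groups compared. It also lost it without WT library 3, EDL library 3 or any single W/Wv library. In these fits at most 7 of the 8 fell. Of 56 symbols of ERK signalling, its ETS factors and feedback inhibitors 4 were tested, and 2 fell and 0 rose.

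**Figure D1:**
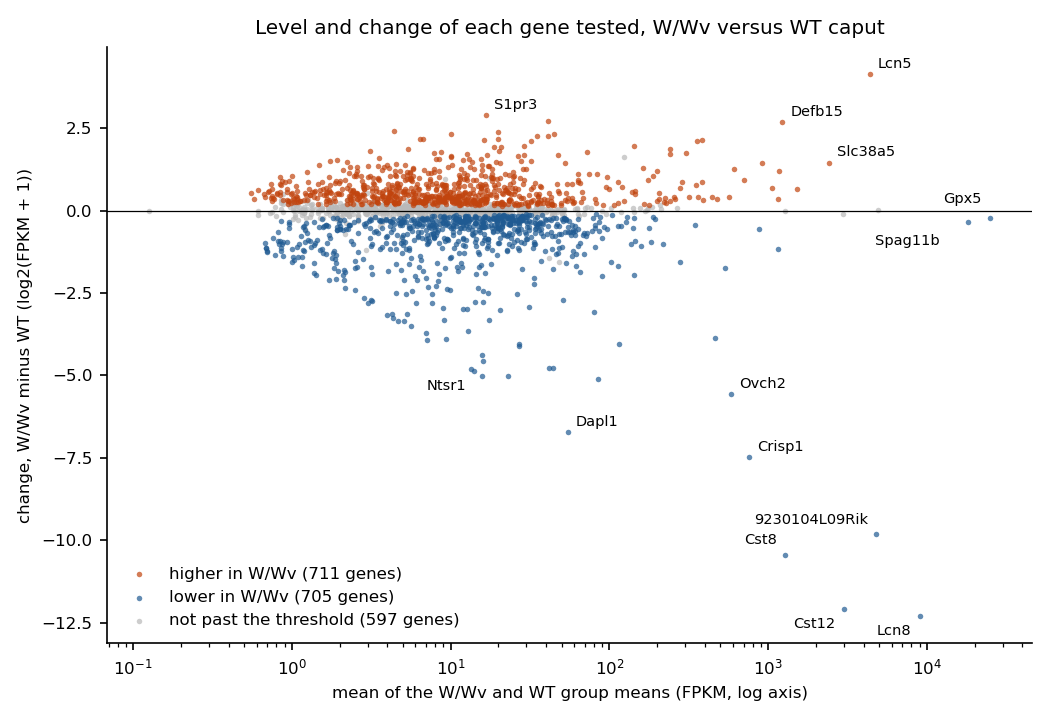
Mean level of each of the 2013 genes tested (FPKM, log axis) against its change in W/Wv minus WT caput (log2(FPKM + 1)). Red points rose (711), blue points fell (705) and grey points did not pass (597). The named genes at the lower right, Lcn8, Cst12, Cst8 and 9230104L09Rik, combine a high level with changes of -9.81 to -12.30.

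Genes of signalling, of membranes and of enzymes were also among the 15 largest falls. Dapl1, a small protein linked to epithelial differentiation, had 0, 0 and 0.141 FPKM in W/Wv, against 124, 95.4 and 109 FPKM in WT. Shc4, an adaptor of receptor tyrosine kinases, had 0.492, 0.438 and 0.384 FPKM in W/Wv, against 50.5, 44.9 and 41.8 FPKM in WT. The sialyltransferase St6galnac2 had 3.11, 4.22 and 4.22 FPKM in W/Wv, against 189, 168 and 140.5 FPKM in WT. In these 3 genes the groups did not overlap, which the choice of genes required. The prolyl hydroxylase P4ha2, which modifies collagen, had 2.17 ± 0.188 FPKM in W/Wv and 85.8 ± 14.4 in WT, and the membrane protein Tmem154 0.37 ± 0.154 and 31.5 ± 4.84 FPKM in the same order. Over the 35 genes that fell 8-fold or more (1.74%), 11 had 100 FPKM or more in the higher group, while 1 gene, Lcn5, rose that far (0.0497%), both counted on the log2(FPKM + 1) scale, which understates the change of low genes. By the ratio of mean FPKM, S1pr3 was also 8.66-fold and Snhg11 11.5-fold higher in W/Wv. At 2-fold or more, 132 genes rose (6.56%) and 207 fell (10.3%).

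Several genes were not detected in W/Wv caput at all. In the 3 W/Wv libraries together 106 genes of the table had 0 reads, against 6 in the 3 WT libraries. Of the 106, 10 had at least 100 WT reads. Ntsr1, the receptor for the peptide neurotensin, had 0, 0 and 0 reads in W/Wv, against 2414, 2163 and 1673 reads in WT, at least 1972-fold lower with the same limit of 3 reads. The noncoding transcript 9230102K24Rik had 0 reads in W/Wv and 2044 in WT, at least 649-fold lower, and 9230117E06Rik 0 and 482 reads in the same order, at least 152-fold lower. Xkr7, of the XK-related membrane protein family, had 0 reads in W/Wv and 1307 in WT, at least 411-fold lower. The odorant receptor gene Olfr1414 had 0 and 170 reads, the tachykinin precursor Tac1 0 and 138, and the lipase-family gene Lipk, which did not pass the filter, 0 and 210, W/Wv before WT in each. These bounds are approximate and cover the counting error of the W/Wv reads only, with the WT reads taken as counted. The remaining 3 of the 10, Prm2, Smcp and Tnp2, are genes of sperm.

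**Figure D2:**
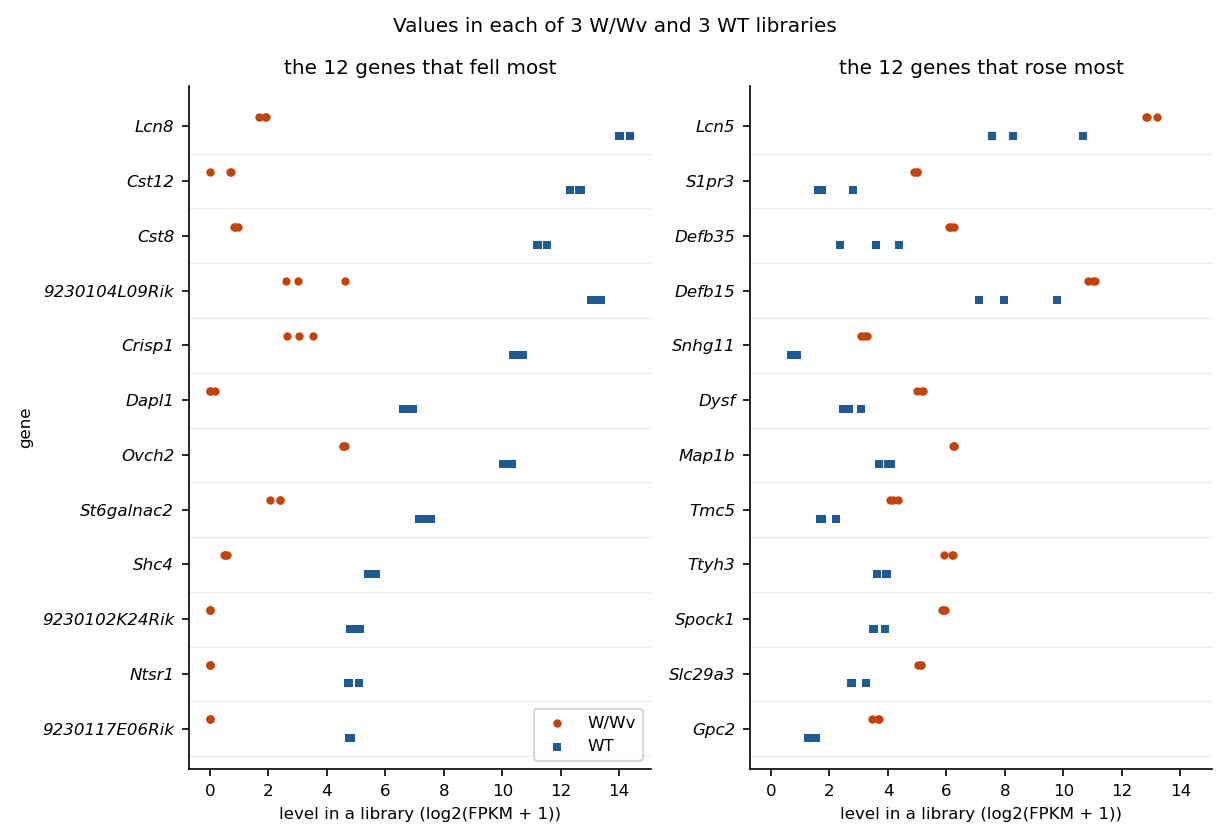
Level of the 12 genes that fell most (left) and the 12 that rose most (right) in each library (log2(FPKM + 1)), with W/Wv as circles above WT as squares. The W/Wv and WT points do not overlap in any of the genes shown, which the choice of genes required. WT points of Lcn5, Defb35 and Defb15 spread widely.

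Transcripts of sperm and of the spermatids they develop from were almost absent. Over 10 markers the W/Wv libraries had 42, 35 and 36 reads, against 1627, 1823 and 1327 reads in the WT libraries, and in 10 of 10 every W/Wv value in FPKM was below every WT value. Over all genes tested the groups did not overlap in 71.9%, with W/Wv lower in 36.3% and higher in 35.6%. Dkkl1, a protein of the sperm acrosome, made up most of the WT marker reads, with 25, 23 and 33 reads in W/Wv, against 1198, 1323 and 925 reads in WT. The protamine Prm2, which packs sperm DNA, had 0, 0 and 0 reads in W/Wv, against 119, 122 and 107 reads in WT, at least 110-fold lower. Smcp, a protein around sperm mitochondria, had 0 reads in W/Wv and 323 in WT, at least 103-fold lower, and the transition protein Tnp2 0 and 125 reads in the same order, at least 39.3-fold lower. The protamine Prm1 had 1, 0 and 0 reads in W/Wv, against 37, 40 and 41 reads in WT. Which cells the WT reads came from was not tested.

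**Figure D3:**
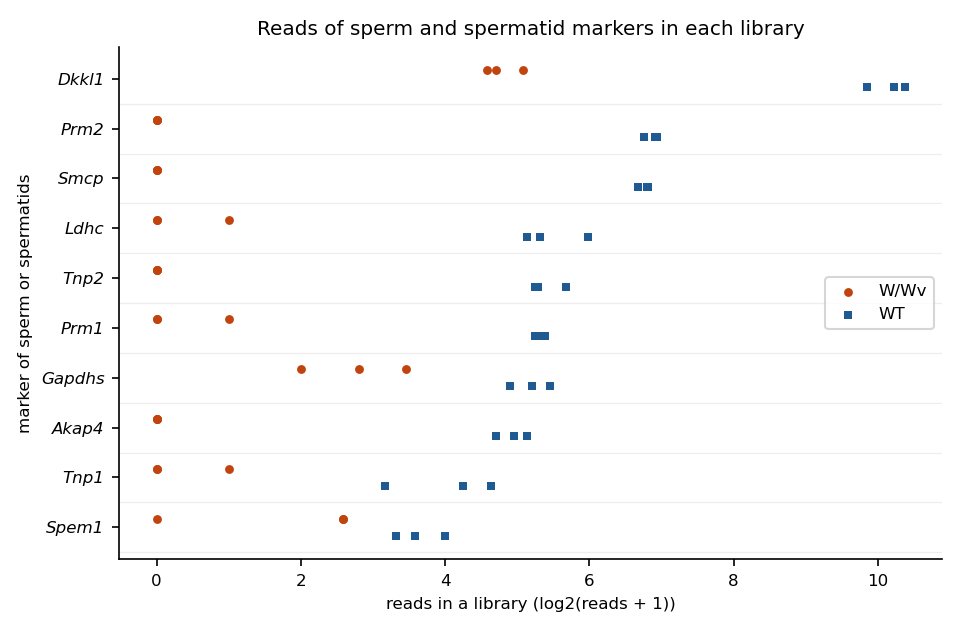
Reads of 10 sperm and spermatid markers in each library (log2(reads + 1)), with W/Wv as circles above WT as squares. The highest W/Wv library lies below the lowest WT library for each gene, and Prm2, Smcp, Tnp2 and Akap4 are at 0 in every W/Wv library.

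A wider list of sperm and germ cell genes was more mixed. Of 36 members 18 passed the filter, many of them through WT alone, and 13 fell, 2 rose and 3 did not pass. Odf2, an outer dense fibre gene that is also a centriole gene in other cells, had 12.6 ± 0.704 FPKM in W/Wv and 16.5 ± 0.407 in WT (SD, n = 3 each), a log2 change of -0.37 (adjusted p = 7.3e-05). Of 17 axoneme and cilium genes tested 4 rose, 6 fell and 7 did not pass, with a median log2 change of 0.01. Many of those are WD-repeat genes matched by their symbols, not known parts of the sperm tail. Tuba1a, an alpha-tubulin, fell to 32 ± 2.96 FPKM in W/Wv against 55 ± 3.17 in WT.

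Lipocalins and defensins held several of the largest rises. Lcn5, a lipocalin that binds retinoids, had 9500.0, 7246 and 7360.0 FPKM in W/Wv, against 308, 186 and 1613 FPKM in WT (log2 change 4.14, SE 0.76, limma adjusted p = 0.0025). WT library 3 stood well above the other WT libraries but below every W/Wv library, and without it the log2 change was 5.05. Lcn5 took 8.15%, 6.18% and 6.45% of the summed FPKM of the table in the W/Wv libraries, against 0.199%, 0.131% and 1.05% in the WT libraries. Its neighbours divided. Lcn12, before Lcn8 on the chromosome, rose, with 824, 918 and 810.0 FPKM in W/Wv against 275, 356 and 466 FPKM in WT. Lcn6 fell, with 672, 749 and 694 FPKM in W/Wv against 1679.9, 1432 and 1659 FPKM in WT. Of 6 genes of lipocalins and retinoid handling tested 3 rose and 3 fell, among them Rara, a retinoic acid receptor, at 12.1 ± 1.33 FPKM in W/Wv and 7.83 ± 0.47 in WT.

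Beta-defensins are small antimicrobial peptides that also coat sperm, and of 8 genes of these and of the related Spag11 family tested, of 9 in the table, 5 rose, 1 fell and 2 did not pass, with a median log2 change of 1.69. Defb15 had 2088, 2143 and 1846 FPKM in W/Wv, against 252, 138 and 872 FPKM in WT (log2 change 2.69, SE 0.63, adjusted p = 0.0074). Defb35 had 75, 70.2 and 67.2 FPKM in W/Wv, against 4.16, 11.1 and 19.7 FPKM in WT. In both genes the groups did not overlap, which the choice of genes required, and WT library 3 was the highest WT library. Without it the log2 change was 3.43 for Defb15, 3.18 for Defb35, 2.25 for Defb37 and 1.74 for Defb45, against 1.95 for Defb37 and 1.43 for Defb45 with it. Spag11a rose, with 726, 581 and 577 FPKM in W/Wv against 163, 135 and 130.5 FPKM in WT. Spag11b, its close relative on chromosome 8, fell slightly, to 16098 ± 889 FPKM in W/Wv against 20494 ± 987 in WT (log2 change -0.35, adjusted p = 0.0047), a call lost with quantile scaling. Reads shared between close relatives could be split either way, so the levels of single defensins are uncertain.

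Among protease inhibitors and proteases the directions were mixed. Of 8 inhibitors tested 4 rose, 3 fell and 1 did not pass. Spink5, a Kazal-type inhibitor of serine proteases, had 586, 597 and 557 FPKM in W/Wv, against 98.3, 166 and 148 FPKM in WT (log2 change 2.101, SE 0.16, adjusted p = 6.9e-07). Spint2, a Kunitz-type inhibitor, rose to 645 ± 38 FPKM in W/Wv against 485 ± 11.7 in WT, while Wfdc2 fell to 4.48 ± 0.216 FPKM in W/Wv against 29.9 ± 4.4 in WT. Of 9 proteases tested, of 20 in the table, 3 rose and 6 fell. Pcsk5, a proprotein convertase, had 6.87, 6.51 and 6.28 FPKM in W/Wv, against 61.1, 56 and 50.9 FPKM in WT. The metalloproteinase Mmp7 had 42.1, 62.1 and 52 FPKM in W/Wv, against 142, 170.0 and 149.8 FPKM in WT, and Adamdec1 had 9 reads in W/Wv and 1502 in WT. The rise of Hpn, the membrane protease hepsin, was smaller, at 18.3 ± 1.05 FPKM in W/Wv and 12.2 ± 0.977 in WT.

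**Figure D4:**
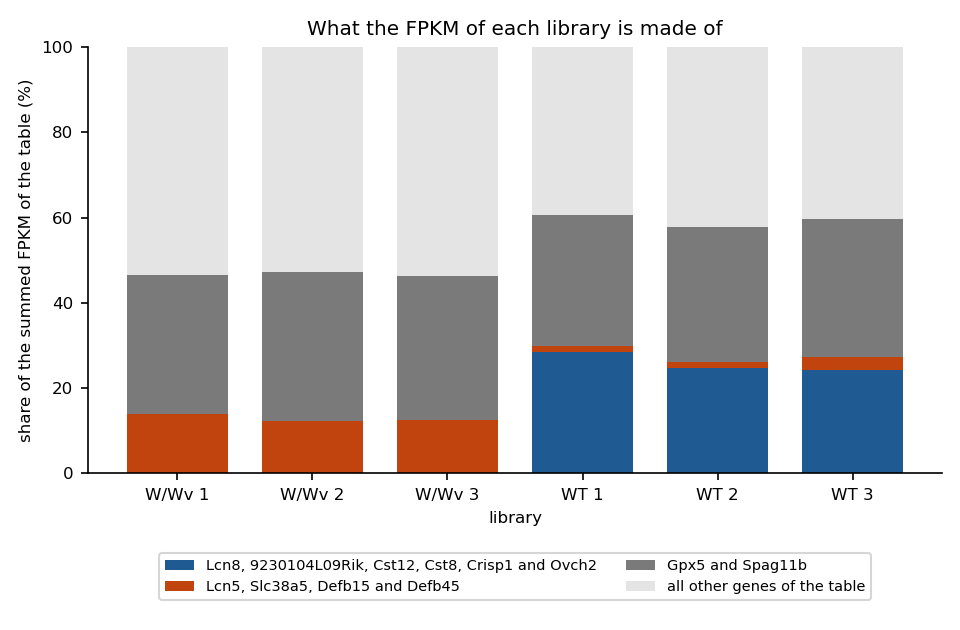
Share of the summed FPKM of the table taken by 3 sets of genes in each library. The blue set is Lcn8, 9230104L09Rik, Cst12, Cst8, Crisp1 and Ovch2, and the red set Lcn5, Slc38a5, Defb15 and Defb45. The 6 genes in blue take 0.0317% to 0.0517% in W/Wv and 24.3% to 28.5% in WT, and the 4 genes in red take 12.2% to 13.9% in W/Wv and 1.31% to 3.05% in WT.

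With these changes the summed FPKM of the table was made up differently in W/Wv and WT. The 6 genes Lcn8, 9230104L09Rik, Cst12, Cst8, Crisp1 and Ovch2 took 0.0398% ± 0.0105 of the summed FPKM of the table in W/Wv and 25.8% ± 2.33 in WT (SD, n = 3 each). Lcn5, Slc38a5, Defb15 and Defb45 took 12.8% ± 0.932 in W/Wv and 1.94% ± 0.965 in WT. Gpx5 and Spag11b, the most abundant genes of the table, took 33.8% ± 1.26 in W/Wv and 31.6% ± 0.754 in WT. These sets were chosen after their values were seen. The FPKM of the table summed to 116000 ± 1686 in W/Wv and 149891 ± 7575 in WT. Other highly abundant genes moved less. Cuzd1, a membrane protein of secretory epithelia, had 1854 ± 79.5 FPKM in W/Wv and 1177 ± 109 in WT (log2 change 0.66, adjusted p = 1.6e-05), and Wfdc10, an inhibitor with a WAP domain, had 2862 ± 54.1 FPKM in W/Wv and 3068 ± 67.7 in WT (adjusted p = 0.29), with a log2 change of -0.10 that became 0.59 with quantile scaling, where it passed (adjusted p = 7.4e-05).

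Cholesterol is made from acetyl-CoA by a chain of enzymes under the control of SREBP factors. Of 29 symbols searched for cholesterol synthesis 7 were tested, and 7 of 7 fell, with a median log2 change of -0.88. Dhcr7, which catalyses the last step to cholesterol, had 1.19, 0.733 and 1.38 FPKM in W/Wv, against 11.5, 9.42 and 10.1 FPKM in WT. The lanosterol synthase Lss had 6.75, 7.4 and 6.89 FPKM in W/Wv, against 26.8, 21.8 and 23.9 FPKM in WT. In both genes the highest W/Wv library was below the lowest WT library, as in 36.3% of all genes tested. Nsdhl fell less, to 145 ± 10 FPKM in W/Wv against 210.3 ± 34.1 in WT, as did Insig1, which holds SREBP back, at 50.3 ± 2.16 and 85.5 ± 10.7 FPKM in the same order. Fatty acid and membrane lipid genes went both ways, with 10 of 19 risen, 8 fallen and a median log2 change of 0.33. The desaturase Scd1 had 15, 18.3 and 15.1 FPKM in W/Wv, against 156, 132 and 140.1 FPKM in WT (log2 change -3.07, SE 0.08, adjusted p = 6.3e-11). The elongase Elovl6 fell to 32 ± 0.88 FPKM in W/Wv against 84.4 ± 8.78 in WT, and the lipid-gene factor Srebf1 to 67.3 ± 6.78 against 105 ± 11.4. The citrate lyase Acly rose to 508 ± 19.5 FPKM in W/Wv against 378 ± 11.6 in WT, and the phospholipid acyltransferase Lpcat3 to 49.5 ± 1.17 against 33.8 ± 1.17.

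Ion channels and pumps, which set the acid and salt content of the lumen, mostly rose. Of 36 tested, of 44 in the table, 25 rose and 9 fell, 13 of the rises by 2-fold or more, with a median log2 change of 0.54. The list was collected by symbol and also holds carbonic anhydrases and a few genes that match by prefix alone. The carbonic anhydrase Car12 had 50.5, 55.7 and 50.9 FPKM in W/Wv, against 8.85, 10.5 and 15.3 FPKM in WT (log2 change 2.12, SE 0.15, adjusted p = 9.2e-07). Ttyh3, of the tweety family of membrane proteins, had 73.4, 59.1 and 72.3 FPKM in W/Wv, against 11.5, 14.4 and 14.8 FPKM in WT. Lrrc8c, a subunit of volume-regulated anion channels, had 31.7 ± 0.984 FPKM in W/Wv and 8.43 ± 1.46 in WT. Tmc5, of a family of membrane channel-like proteins, had 17.3 ± 1.62 FPKM in W/Wv and 2.73 ± 0.816 in WT. Ano10 was among those that fell, to 24.7 ± 0.726 FPKM in W/Wv against 37.9 ± 2.69 FPKM in WT. Atp6v0a4, a proton pump subunit that marks clear and narrow cells, rose to 5.21 ± 0.318 FPKM in W/Wv against 2.93 ± 0.351 FPKM in WT. The part of those cells in the rise of ion transport genes was not tested.

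Solute carriers leaned the other way. Of 52 tested, of 60 in the table, 17 rose, 25 fell and 10 did not pass, with a median log2 change of -0.11. With quantile scaling 20 rose and 21 fell. Slc38a5, a glutamine and serine carrier and by far the most abundant of them, had 3385, 3489 and 3709 FPKM in W/Wv, against 1061, 1373 and 1462 FPKM in WT (log2 change 1.45, SE 0.11, adjusted p = 3.2e-07). Slc29a3, a nucleoside carrier of lysosomes, rose to 33.1 ± 1.57 FPKM in W/Wv against 6.68 ± 1.63 in WT. Slc7a8, a carrier of large neutral amino acids, fell to 38.8 ± 1.09 FPKM in W/Wv against 98.8 ± 12.4 in WT, and Slc41a3, of a family of magnesium carriers, to 29.6 ± 1.17 against 44.5 ± 4.69.

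Of 16 genes of the Wnt, Notch, Hedgehog, TGF-beta and FGF pathways tested 11 rose and 2 fell, with a median log2 change of 0.44. The list was collected by symbol, and the largest fall in it (log2 change -4.77) is Dkkl1, the sperm acrosome gene described above. Tcf7, a transcription factor of the Wnt pathway, had 80.5, 66.5 and 73.2 FPKM in W/Wv, against 20.8, 19.9 and 25.8 FPKM in WT (log2 change 1.69, SE 0.09, adjusted p = 3.7e-08). Notch1 had 27.1 ± 2.39 FPKM in W/Wv and 18.1 ± 2.95 in WT, its target Hes1 32.6 ± 1.16 and 24.7 ± 0.708, and Ltbp3, which binds latent TGF-beta, 121 ± 11.4 and 77.4 ± 9.12, W/Wv before WT. Of 14 Hox and epididymal patterning factors 8 rose and 3 fell. Pax2, a factor needed to form the duct, had 24.3, 20.4 and 24.8 FPKM in W/Wv, against 8, 8.22 and 8.25 FPKM in WT, and Hoxd3 rose to 23.8 ± 1.62 against 14.1 ± 0.852.

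S1pr3, a receptor for the lipid signal sphingosine 1-phosphate, was the second largest rise on the log2(FPKM + 1) scale. It had 28.5, 30.6 and 30.8 FPKM in W/Wv, against 2.39, 2.07 and 5.93 FPKM in WT (log2 change 2.90, SE 0.28, adjusted p = 3.8e-05), with WT library 3 again the highest of its group. Sphk1, which makes sphingosine 1-phosphate, rose to 15.6 ± 0.568 FPKM in W/Wv against 10.6 ± 0.652 in WT. Of 15 matrix and adhesion genes 9 rose and 4 fell, with a median log2 change of 0.41. The proteoglycans Spock1, at 58.1 ± 2.38 FPKM in W/Wv and 11.5 ± 2.13 in WT, and Gpc4, at 102 ± 4.03 and 46.8 ± 6.95, were higher in W/Wv. Gpc2, another heparan sulphate proteoglycan, had 11.2 ± 1.05 FPKM in W/Wv and 1.71 ± 0.254 in WT. The tight junction genes went the other way, Cldn10 with 10.3, 16 and 10.9 FPKM in W/Wv against 232, 208 and 208 FPKM in WT, and Cldn2 with 294 ± 8.83 FPKM in W/Wv and 399 ± 10.3 in WT. Dysf, a membrane repair protein, rose to 33.9 ± 2.32 FPKM in W/Wv against 5.77 ± 1.46 in WT.

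Of 20 genes of axon guidance and neuronal signalling, many of which epithelia also use, 8 rose and 10 fell. Camk2b, a subunit of a calcium-dependent kinase, had 10.6, 10.9 and 12 FPKM in W/Wv, against 61.5, 52.9 and 53.2 FPKM in WT. Uchl1, a deubiquitinase listed here as a marker of nerve, had 7.21, 7.24 and 6.79 FPKM in W/Wv, against 48.1, 45.9 and 42.7 FPKM in WT. It was the one nerve marker in the table, and the part of nerve in its fall was not tested. Map1b, which stabilises microtubules, rose, with 75.9, 73.9 and 75.2 FPKM in W/Wv against 11.8, 15.1 and 16.1 FPKM in WT. The neurotensin receptor Ntsr1, described above, is on the same list.

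**Figure D5:**
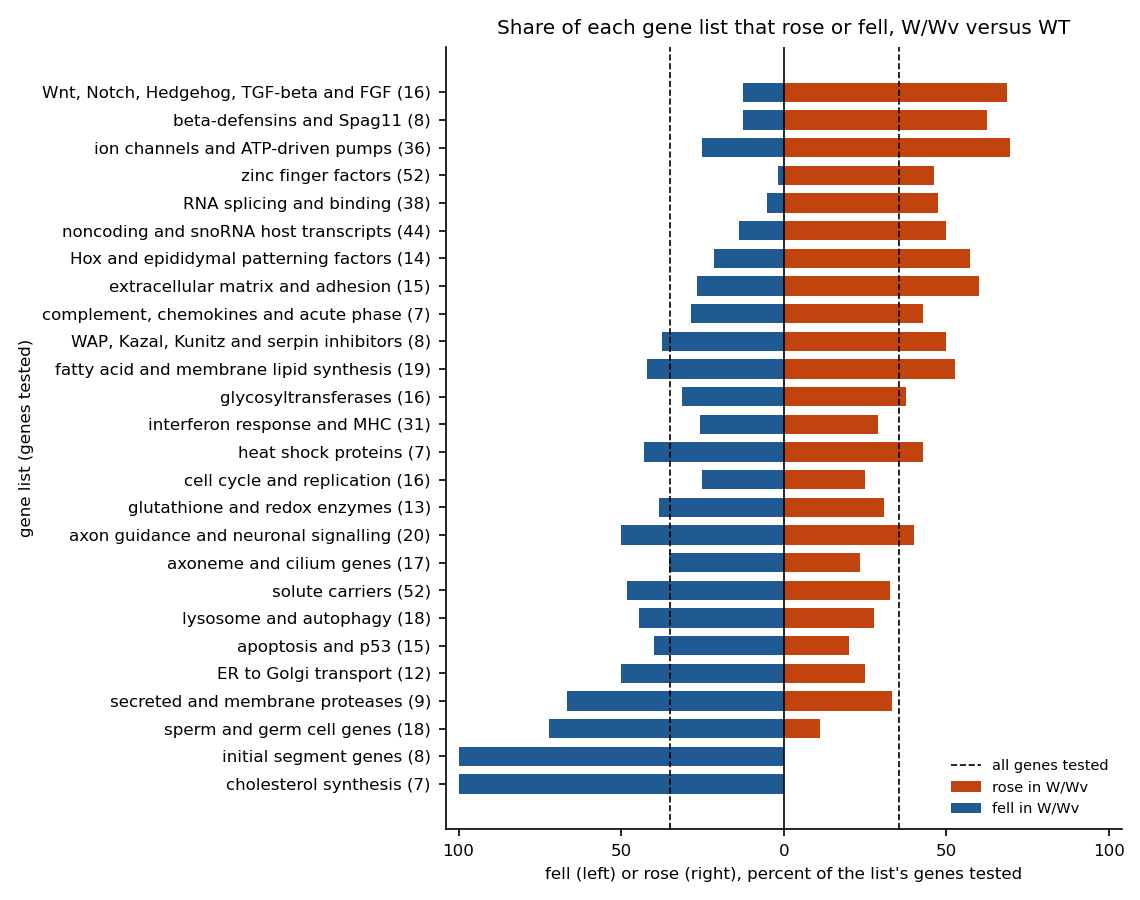
Share of each gene list that rose (red, right) or fell (blue, left) in W/Wv against WT, in percent of the list's genes tested, whose number is in parentheses. Dashed lines mark the shares over all genes tested, 35.3% risen and 35.0% fallen.

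Zinc finger and RNA-binding genes changed little in size and mostly in 1 direction. Of 52 zinc finger genes tested 24 rose, 1 fell and 27 did not pass, with a median log2 change of 0.18, and of 38 splicing and RNA-binding genes 18 rose and 2 fell, with a median of 0.10. With median-ratio scaling the zinc finger genes had 22 rises and 2 falls, and the RNA-binding genes 17 and 5. Zfp648 rose to 115 ± 11 FPKM in W/Wv against 53.1 ± 4.36 in WT, and the RNA helicase Ddx17 to 228 ± 6.61 against 180.0 ± 15.8. Of 44 noncoding and host transcripts tested, of 70 in the table, 22 rose and 6 fell, with a median of 0.32. This list was collected by symbol and takes in all numbered Gm genes, so not every member is noncoding. Gm7120, which rose (log2 change 0.64), is protein-coding. Snhg11, which hosts small nucleolar RNAs, had 7.45, 8.02 and 8.76 FPKM in W/Wv, against 0.669, 0.602 and 0.844 FPKM in WT (log2 change 2.41, SE 0.08, adjusted p = 3.4e-10).

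The remaining lists had members in both directions. Of 31 interferon response and MHC genes 9 rose, 8 fell and 14 did not pass, and Ifitm2, an antiviral membrane protein, fell to 139.9 ± 4.89 FPKM in W/Wv against 416 ± 32.9 in WT. Of 18 lysosome genes 5 rose and 8 fell, with Glb1l2, a beta-galactosidase relative, at 58.8, 62.4 and 55.3 FPKM in W/Wv against 937, 839 and 838 FPKM in WT. Npc2, a cholesterol-binding protein abundant in epididymal fluid, rose to 444 ± 34.9 FPKM in W/Wv against 260.2 ± 20.6 in WT. Of 13 redox genes 4 rose and 5 fell, of 16 glycosyltransferases 6 and 5, of 12 ER to Golgi genes 3 and 6, of 7 heat shock genes 3 and 3, of 15 apoptosis genes 3 and 6, of 16 cell cycle genes 4 and 4, and of 7 complement and acute phase genes 3 and 2. Of 4 androgen and steroid genes 1 rose and 3 fell, and Fkbp5, an androgen and glucocorticoid target, had 189 ± 2.35 FPKM in W/Wv and 169 ± 9.22 in WT (adjusted p = 0.019), a call lost under 3 of 19 alternatives. Hspa1b had 24.5 ± 0.714 FPKM in W/Wv and 11.5 ± 1.17 in WT, but reads shared with Hspa1a make the level of each uncertain.

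Markers of other cells that the genotype affects were few and shallow. The 3 mast cell genes in the table had 0 reads in W/Wv and 32 in WT together. Tyr, the pigment cell tyrosinase, had 24, 18 and 9 reads in W/Wv, against 26, 28 and 18 reads in WT, and the groups overlapped. The 2 red cell genes Hba-a1 and Alas2 had 142, 262 and 167 reads in W/Wv, against 746, 542 and 427 reads in WT. Neither passed the limma test, with a log2 change of -1.55 for Hba-a1 (SE 0.79, adjusted p = 0.13). Their W/Wv values in FPKM lay below every WT value, as in 36.3% of all genes tested. Both genes passed as lower in W/Wv with only the 2 groups compared, without EDL library 2, with edgeR and with DESeq2, and 1 of them, Alas2, without EDL library 1. The corpus and cauda markers in the table were Crisp1, Cldn10 and Lcn6, described above. The fibroblast marker and the adipocyte marker rose, and of 5 genes of RNA quality and stress 2 rose and 0 fell. How far blood, mast cells or any of these bear on the other genes was not tested.

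Set directly against EDL caput, where the ducts are blocked but the testis is of wild-type genotype, W/Wv differed in 281 of 2013 genes (14.0%), 140 higher (6.95%) and 141 lower (7.0%) in W/Wv. Both comparisons of W/Wv use the same W/Wv libraries. Of the 15 genes that fell most against WT, 13 did not pass against EDL, which is near the share over all genes tested. Of these, Ntsr1, 9230102K24Rik and 9230117E06Rik had 0 reads in both W/Wv and EDL. Shc4 was at 0.438 ± 0.0537 FPKM in W/Wv and 0.201 ± 0.0508 in EDL (limma adjusted p = 0.059), and the log2(FPKM + 1) scale understates differences at such levels. For Lcn8 the level was 2.55 ± 0.293 FPKM in W/Wv against 3.66 ± 0.947 FPKM in EDL, and for Ovch2 22.9 ± 0.857 against 22.8 ± 0.394 (SD, n = 3 each). The 2 that differed were Cst12, at 0.415 ± 0.36 FPKM in W/Wv against 183 ± 19 FPKM in EDL (limma log2 change -7.05, SE 0.19, adjusted p = 1.3e-07), and Crisp1, at 7.68 ± 2.67 and 1.78 ± 0.128 (log2 change 1.60, SE 0.20, adjusted p = 0.0014). Of the 15 that rose most, Snhg11 and Spock1 passed as higher than in EDL, and Spag11a as lower, at 628 ± 85 FPKM in W/Wv and 828 ± 9.57 in EDL. S1pr3, Map1b and Tmc5 lay above EDL and Lcn5 below it without overlap, but none of them passed. The Spag11a difference was lost under 6 of 19 alternatives, with adjusted p up to 0.093, and without single libraries the number of genes that differed was 174 to 385, with 181 without W/Wv library 1, 174, 187 and 174 without EDL libraries 1, 2 and 3 and 385 without WT library 3. Camk2b, one of the lowest against EDL, was at 11.2 ± 0.729 FPKM in W/Wv against 23.6 ± 0.894 FPKM in EDL, and Cldn10, one of the highest, 12.4 ± 3.16 and 6.17 ± 0.686 in the same order. Over the 10 sperm markers W/Wv had 113 reads in all and EDL 117. The 3 mast cell genes had 0 reads in W/Wv and 42 in EDL.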

How the data were processed

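Poly-A RNA of whole caput was sequenced from strand-specific libraries, as the labels' protocols state, and each library took its group from its title. Per the submitters' processing notes, the tools were TopHat2 2.1.1 and Cufflinks 2.2.1, with mm10 as the build. The annotation and the use of strand in counting were not stated. For each gene the authors deposited a normalized FPKM value, per the file headers. Beside it the authors deposited a normalized count, taken here as a signal: reads over a scaling factor of the library. Whole reads were recovered from it, and 98.8% to 99.0% of values came out within 0.1 of a whole number.

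Of 2462 genes, 2013 reached 1 FPKM in at least 3 of the 9 libraries and were tested with limma 3.58.1 (R 4.3.3; trended, robust) on log2(FPKM + 1), with all 9 libraries in 1 fit and Benjamini-Hochberg adjustment at 0.05. A gene with 0 reads in W/Wv was given an approximate limit of 3 reads, which covers counting error in W/Wv only. The WT reads were taken as counted. Alternatives were another pseudocount, other filters and scalings, only the 2 groups compared, plain empirical Bayes, a replicate block, each library left out, and edgeR 4.0.16 and DESeq2 1.42.0 on the recovered reads, where edgeR called 1425 genes. Simulated counts of 1924 genes served as a test: 55.3% of 1.25-fold changes were called, 97.9% of 2-fold changes, and 8 of 1732 genes with no change. Most genes there had no change, while 1416 of the 2013 tested in the deposited table changed. Whether the same shares hold for that table, with its shift of abundant genes and its genes of few reads, was not tested.

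Names and coordinates came from RefSeq tables of GRCm38.p6, matched for 2454 identifiers. The genes named were the 15 that rose and the 15 that fell most (5 FPKM or more in one group, libraries apart), genes at 0 reads in W/Wv with at least 100 in WT, the 10 most abundant, the most abundant members of each list, and those that differed most from EDL. Some genes so picked are not reported here, and Crisp4 and Gzf1 were named after their values were seen. The members and lists were chosen with earlier results of these data known.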

Additional observations from a re-analysis of the deposited data

How the results depend on the processing

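The number of genes changed in W/Wv against WT was 1416, and it was 1089 with a filter of 5 FPKM (1473 genes tested), 1622 with no filter, 1425 with edgeR and 1384 with DESeq2. Scaling moved the split most, with 849 genes risen and 608 fallen with quantile scaling, which moved the median of all genes to 0.11 on the log2 scale, and 693 and 724 with median-ratio scaling. Without single libraries 1342 to 1406 genes changed. Against EDL 281 genes differed, and 425 with only the 2 groups compared, and without single libraries 174 to 385; the cause was not tested. Of 99 comparisons of named genes past the threshold, 94 kept it under every alternative that tested them and 0 reversed. The others were Gpx5, Spag11b, Cst3 and Fkbp5 against WT and Spag11a against EDL. Many of the named genes were chosen for large changes, which makes a kept call likely, so this is not the rate over all genes changed. Of 6 comparisons not past the threshold, Hba-a1 and Alas2 against WT and Lcn8 against EDL passed under 1 or more alternatives. With quantile scaling the log2 change of Wfdc10 against WT was 0.59, reversed and past the threshold, that of Gzf1 was 0.034, reversed and not past it, and that of Ovch2 against EDL was -0.020. That of Ovch2 against EDL was -0.025 to 0.021 without single W/Wv libraries, and -0.0044 without EDL library 1. Same-numbered W/Wv and WT libraries did not deviate together (correlations -0.258 to -0.0957), and other-numbered pairs had correlations of 0.0309 to 0.224. Deviations from a group mean sum to 0, so these correlations constrain each other and cannot decide whether the numbers pair the libraries. The labels do not say so either. With the replicate block 1380 genes changed, 692 risen and 688 fallen, 339 by 2-fold or more, and 219 differed from EDL. The depth limits statements on low transcripts, such as those of mast cells, to what a few reads allow.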
